A study of Mus musculus with 2 samples.

Results

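The members are 10 genes for RNA-binding proteins that steer alternative splicing in progenitors and neurons, chosen by their symbols: *Ptbp1* and *Ptbp2*, *Rbfox1*, *Rbfox2* and *Rbfox3*, *Nova1* and *Nova2*, and *Elavl2*, *Elavl3* and *Elavl4*. All 10 of 10 were found among the 32285 genes of both libraries, under the same Ensembl identifiers as in the GENCODE annotation. Slide-tags single-nucleus RNA sequencing, in which nuclei of a frozen section take up spatial barcodes before droplet profiling, was used on 2 mouse tissues. One was the hippocampus of an adult C57BL/6J mouse of 56 days, and the other the brain of an embryo at embryonic day 14 (E14), given as C57BL/6J in the main methods and as C57 elsewhere. No transgene, mutation or treatment is given for either in the sources used here. There was 1 library for each tissue, so no value has a replicate, no test between conditions was possible, and age, tissue and library cannot be told apart. All intervals are 95% exact intervals and cover counting error only. Levels are given as CPM, the UMIs of a gene per 1000000 UMIs summed over all nuclei of a class, where a UMI is 1 counted RNA molecule. A gene was counted as higher or lower between sets of nuclei where its level differed at least 2-fold with an interval that left out equality.

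Polypyrimidine tract-binding protein 1, encoded by *Ptbp1*, represses many neuronal exons in progenitors and non-neural cells, and it also causes an exon of its paralogue *Ptbp2* to be skipped, which sends that transcript to decay. During neurogenesis *Ptbp1* is repressed, in part by the neuronal microRNA miR-124, and PTBP2 protein takes its place until neurons mature. RBFOX proteins bind GCATG elements and act on neuronal exons, NOVA proteins bind clusters of YCAY, and the neuronal ELAVL (Hu) proteins bind U-rich elements in introns and 3′ ends. RBFOX3 is the antigen NeuN, used widely as a marker of mature neurons.

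The exon through which *Ptbp1* is known to act on *Ptbp2* is shown first. It has 34 bases and is exon 10 of 14 in the annotated transcript with most exons that holds it, at chr3:119724612-119724645 on the minus strand of GRCm38 (mm10), and 3 of 13 annotated transcripts hold it. The window below (chr3:119724572-119724735) runs 5′ to 3′ on the strand of the gene, with 90 intronic bases, the exon and 40 intronic bases, and capitals mark TCTT, a pyrimidine element of the kind PTB proteins bind, in the 90 bases before the exon.
Ptbp2 exon 10 and flanks: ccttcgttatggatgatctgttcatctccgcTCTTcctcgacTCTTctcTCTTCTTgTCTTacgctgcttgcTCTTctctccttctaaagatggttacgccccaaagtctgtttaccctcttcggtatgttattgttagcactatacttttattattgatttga
The 90 bases held 6 TCTT words, counted on the strand of the gene with overlaps allowed, and 76.7% of them were pyrimidines. Among 8031 windows of the same length before internal exons of protein-coding genes on chromosome 3, the median was 1 TCTT and 55.6% pyrimidines. At least 6 words were found in 0.311% of those windows, and at least 1 in 65.6%. The deposited values are gene totals, so inclusion of this exon was not measured.

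Promoters are shown for 3 members that sat differently along the progenitor-to-neuron order. *Ptbp1* had a lower level in neurons and *Elavl4* its highest in the middle of that order, both by less than 2-fold, and *Elavl3* was higher in neurons. Each line gives the 250 bases before an annotated start (RefSeq, GRCm38.p6), 5′ to 3′ on the strand of the gene. Capitals mark 2 E-box words that proneural helix-loop-helix factors are known to bind, on either strand. The first, CAGCTG, is its own reverse complement, and the second is CAGATG, which may stand as its reverse complement. For *Elavl4*, the second of 4 starts from the 5′ end was chosen after its words had been seen.
Ptbp1, chr10:79854182-79854431, plus strand: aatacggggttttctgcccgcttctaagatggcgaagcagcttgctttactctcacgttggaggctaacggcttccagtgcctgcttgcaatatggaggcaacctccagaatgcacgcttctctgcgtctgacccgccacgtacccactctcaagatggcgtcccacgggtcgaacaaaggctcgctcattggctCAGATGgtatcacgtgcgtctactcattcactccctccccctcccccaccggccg
Elavl3, chr9:22052024-22052273, minus strand: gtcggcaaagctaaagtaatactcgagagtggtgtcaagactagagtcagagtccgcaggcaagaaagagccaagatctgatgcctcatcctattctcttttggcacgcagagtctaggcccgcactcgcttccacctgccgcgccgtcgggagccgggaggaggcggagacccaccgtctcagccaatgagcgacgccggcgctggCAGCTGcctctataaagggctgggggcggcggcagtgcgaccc
Elavl4, second start, chr4:110287528-110287777, minus strand: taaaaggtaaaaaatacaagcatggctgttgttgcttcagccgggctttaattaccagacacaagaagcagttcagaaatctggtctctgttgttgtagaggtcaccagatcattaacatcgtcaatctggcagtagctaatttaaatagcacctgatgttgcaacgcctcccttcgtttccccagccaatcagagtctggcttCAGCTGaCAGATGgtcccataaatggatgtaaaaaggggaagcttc
The *Elavl3* window held 1 CAGCTG and the *Elavl4* window 1 of each word, while the *Ptbp1* window held 1 CAGATG. The first word occurred in 4271 of 32851 promoter windows of this length and the second in 4745 (14.4%), so a single match is common. Neither word was in the 6 *Elavl2* windows or in those of *Ptbp2*, *Rbfox3* and *Nova2*. The *Nova1* window and the second of 2 *Rbfox1* windows also held 1 CAGCTG. Of the *Elavl4* starts not shown, the first held neither word, the third 1 of each and the fourth 1 CAGATG. The *Ptbp1* and *Elavl3* windows were rich in CG, with 17 and 20 CG pairs against a median of 6, and the *Elavl4* window shown held 4. Windows were matched for 9 of the 10 members, all but *Rbfox2*.

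The adult library held 1609 nuclei with 15346746 UMIs (median of 6607 per nucleus), and the E14 library 9036 nuclei with 58923882 UMIs (median of 4204). They shared 1 barcode. Nuclei were put into classes by the UMIs of marker lists that held none of the 10 genes. This gave 784 neurons in 6 classes and 464 glia in the adult tissue, and 346 radial glia, 152 intermediate progenitors and 5028 neurons at E14, of which 1833 fell into 7 neuron classes. No class was found for 18.5% of adult and 30.1% of E14 nuclei. A class name stands for nuclei that are like that type in their markers, and the adult library also held thalamic-like and cortical-like neurons. Radial glia are the stem cells that line the ventricles. Intermediate progenitors, marked by *Eomes* among other genes, are the cells between them and cortical excitatory neurons. Classes were cut from marker UMIs and are ranges: moving the margin between marker scores from 0.3 to 0.2 changed the class of 5.59% of E14 and 3.48% of adult nuclei.

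Neuronal marker UMIs were found in non-neuronal classes of both libraries. The 8 pan-neuronal markers summed to 844 CPM in E14 radial glia and to between 2032 and 3270 in the 4 non-neural classes, against 4776 to 6153 in the E14 neuron classes, and all 8 were above 0 in each class. In the adult they summed to between 929 and 4681 in the 5 glial and endothelial classes, with the highest value in microglia, against 8105 to 22803 in neurons. The part of free RNA or mixed nuclei in the levels below was not tested, and levels in endothelial or mesenchymal nuclei are given beside the results.

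Between radial glia and all E14 neurons, 5 of the 10 genes were higher in neurons and 0 were lower, where 13.6% of 17577 genes were higher and 16.9% lower. The 5 were *Rbfox1*, *Rbfox3*, *Nova1*, *Elavl3* and *Nova2*. The median log2 ratio was 0.86 over the 10 genes and -0.21 over all genes tested. *Rbfox1* stood at 423 CPM in radial glia (interval 398 to 450) and at 3460 in neurons (3438 to 3482), a ratio of 8.17 (7.69 to 8.69). *Rbfox3* stood at 82.9 (71.9 to 95.1) and 252 (246 to 258), a ratio of 3.04 (2.65 to 3.52). *Nova1* was 2.77 times (2.49 to 3.08), *Elavl3* 2.33 times (2.12 to 2.58) and *Nova2* 2.10 times (1.82 to 2.42) as high in neurons.

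The ratios depended on which nuclei counted as radial glia. With Seurat clusters named from the same markers, *Rbfox1* (4.86) and *Nova1* (2.07) alone were past 2-fold among the 10, and *Rbfox3*, *Elavl3* and *Nova2* came to 1.74, 1.73 and 1.82. Non-neural nuclei also set a limit: *Rbfox1* was at 1030 CPM in endothelial, 1885 in mesenchymal and 2325 in microglial nuclei, above its level in radial glia. Neurons exceeded endothelial nuclei 3.36-fold for *Rbfox1* (3.21 to 3.51), 3.59-fold for *Nova1* (3.15 to 4.11), 2.34-fold for *Rbfox3* (2.04 to 2.70) and 2.24-fold for *Elavl3* (2.01 to 2.49). For *Nova2* both were close, with 171 and 152 CPM and a ratio of 1.12 (1.00 to 1.27). Over microglia the neurons stayed under 2-fold for the other 4, with 1.49 for *Rbfox1* (1.42 to 1.56), 1.47 for *Nova1* (1.29 to 1.70), 1.36 for *Rbfox3* (1.147 to 1.62) and 1.59 for *Elavl3* (1.38 to 1.85), and over mesenchymal nuclei the *Rbfox1* ratio was 1.84 (1.78 to 1.90). These microglia had the highest pan-neuronal marker sum of the non-neural classes, 3270 CPM.

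*Ptbp1*, the progenitor member of the pair, was lower in neurons, although by less than 2-fold. It stood at 33.7 CPM in radial glia (26.9 to 41.8, 83 UMIs) and at 18.9 in neurons (17.3 to 20.6, 510 UMIs), a ratio of 0.56 (0.44 to 0.71). Its highest E14 levels were in non-neural nuclei, with 49.0 (39.8 to 59.8) in endothelial and 42.1 (33.7 to 52.0) in mesenchymal nuclei. Few nuclei held a *Ptbp1* UMI at all: after each nucleus was thinned to 1000 UMIs the share was 2.84% of 317 radial glia and 2.15% of 4752 neurons, and unthinned 17.9% and 9.31%. The endothelial shares were 6.47% thinned and 44.4% unthinned, at a median depth of 9048 UMIs against 4105 in radial glia and 4397.5 in neurons.

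*Ptbp2*, which takes over from *Ptbp1* at the protein level, was not higher in neurons in these counts. Radial glia held 367 CPM (343 to 392), intermediate progenitors 342 (313 to 372) and all neurons 304 (297 to 310). The ratio of neurons to radial glia was 0.83 (0.77 to 0.89). The lowest levels were in choroid plexus (218) and endothelial nuclei (232), which radial glia exceeded 1.58-fold (1.41 to 1.78). A UMI of both genes was found in 15.0% of radial glia and 7.48% of neurons, and of *Ptbp2* alone in 49.7% and 60.2%. *Ptbp1* alone was seen in 2.89% and 1.83%.

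*Rbfox2*, *Elavl2* and *Elavl4* stayed within 2-fold. *Rbfox2*, the most broadly expressed of its family, was at 394 CPM in radial glia and 506 in neurons (ratio 1.28, 1.20 to 1.37), and at 496 in mesenchymal nuclei. *Elavl2* was at 315 and 495 (1.57, 1.46 to 1.70). *Elavl4* was at 239 and 295 (1.24, 1.14 to 1.35), and at 137 in endothelial, 133 in mesenchymal and 230 in microglial nuclei, so radial glia were close to the last of these.

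**Figure D1:**
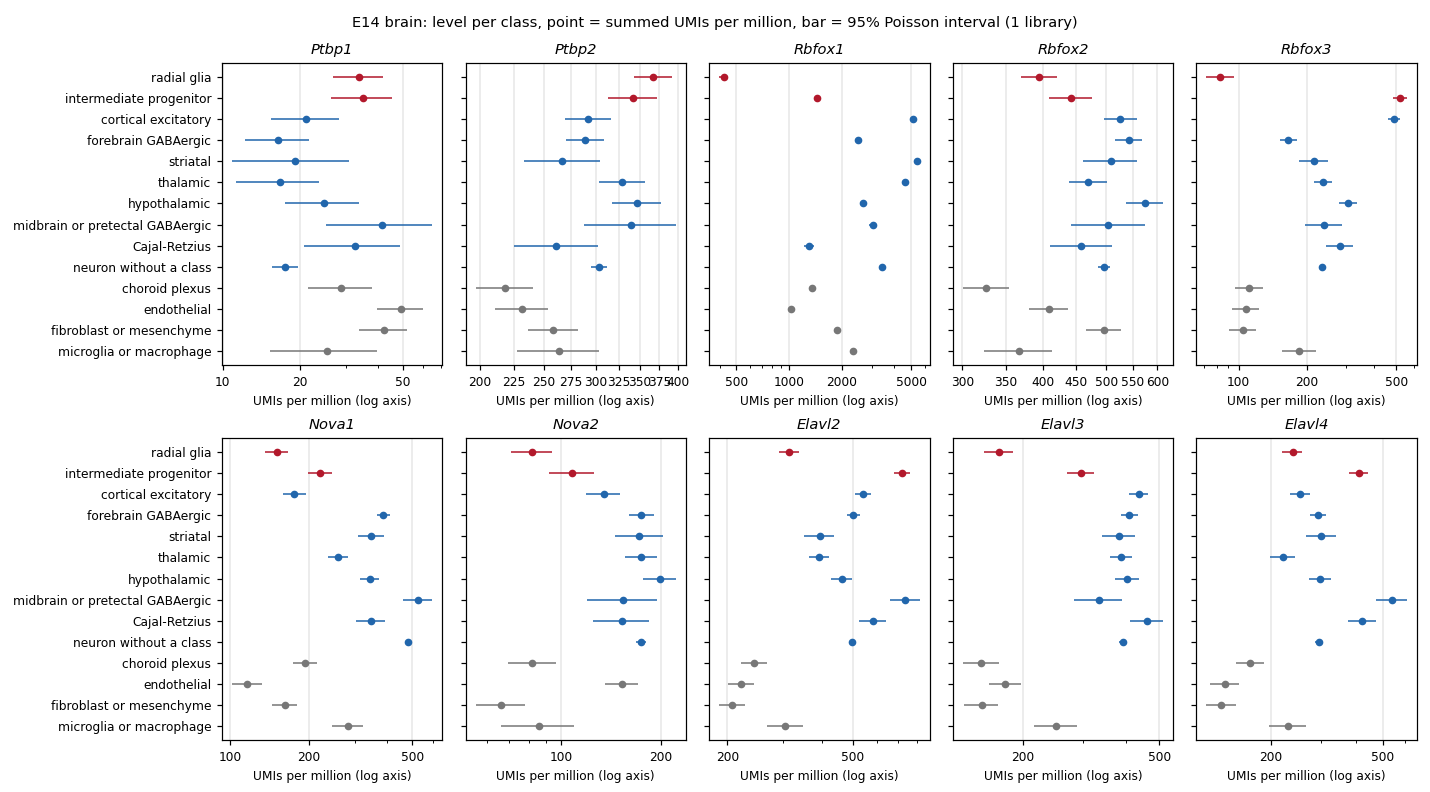
Level of each gene in 14 E14 classes, in CPM on a log axis, with 95% Poisson intervals from 1 library. Progenitors are red, neurons blue and non-neural classes grey; *Rbfox1* runs from 423 in radial glia to 5415 in striatal neurons, while *Ptbp2* stays between 218 and 367.

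From radial glia through intermediate progenitors to cortical excitatory neurons, the order of the dorsal lineage, the genes took different courses. The intermediate progenitors needed 3 markers of a list that holds *Eomes* but does not require it, so nuclei of other regions may be among them. The radial glia here were the whole class of 346 nuclei, not dorsal ones alone. Of them 66 had an *Emx1* or *Emx2* UMI (dorsal forebrain genes) and no *Dlx* UMI, and 68 a *Dlx* UMI (ventral genes) and no *Emx* UMI. In the 66, *Elavl3* stood at 94.4 CPM and *Rbfox3* at 139, against 171 and 82.9 in the whole class. Against radial glia, intermediate progenitors had 3 of 10 genes higher (*Rbfox1*, *Rbfox3* and *Elavl2*) and 0 lower, where 6.6% and 6.8% of 12730 genes were. Cortical excitatory neurons against radial glia had 3 higher (*Rbfox1*, *Rbfox3* and *Elavl3*) and 0 lower (11.2% and 19.7% of 13048 genes). Between intermediate progenitors and cortical excitatory neurons, 1 was higher (*Rbfox1*) and 0 were lower in neurons (4.2% and 10.1% of 12224 genes).

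Pan-neuronal markers summed to 844 CPM in radial glia, 2674 in intermediate progenitors and 4776 in cortical excitatory neurons, and cortical excitatory markers to 148, 304 and 1163, and the part of mixed nuclei in the levels of intermediate progenitors was not tested. *Rbfox3* stood at 82.9 CPM in radial glia, 521 (486 to 557) in intermediate progenitors and 491 (461 to 521) in cortical excitatory neurons, and the last 2 differed by a ratio of 0.94 (0.86 to 1.03). *Elavl2* and *Elavl4* were highest in intermediate progenitors: *Elavl2* stood at 315, 717 and 540, and *Elavl4* at 239, 410 and 254. The intermediate progenitor level was 2.28 times (2.08 to 2.50) that of radial glia for *Elavl2* and 1.72 times (1.53 to 1.93) for *Elavl4*. In thinned nuclei, an *Elavl2* UMI was found in 23.0% of radial glia, 50.0% of intermediate progenitors and 39.6% of cortical excitatory neurons, against 13.7% of endothelial nuclei. For *Rbfox3* these shares were 4.42%, 42.1% and 39.9%, against 9.35% of endothelial nuclei. Unthinned, they were 15.6%, 114 of 152 nuclei, 80.3% and 45.8%, at median depths of 4105, 6816.5, 5211.5 and 9048 UMIs.

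*Rbfox1* was higher at each step. It stood at 423, 1447 and 5091 CPM, with ratios of 3.42 (3.18 to 3.68) and 3.52 (3.36 to 3.68) between neighbours. *Elavl3* stood at 171, 295 and 436, with steps under 2-fold of 1.73 (1.51 to 1.98) and 1.48 (1.32 to 1.65), and its ratio of 2.55 between the ends was 1.94 with Seurat clusters. *Ptbp1* was level between radial glia (33.7) and intermediate progenitors (34.9). It was lower in cortical excitatory neurons (21.1), with a ratio of 0.62 (0.42 to 0.91) to radial glia, which became 0.49 where 1 more marker was asked for. In the 66 radial glia with an *Emx* and no *Dlx* UMI, *Ptbp1* stood at 12.0, from only 6 UMIs. No ratio of cortical excitatory neurons to these nuclei was computed, and so few UMIs show neither a fall nor a rise from dorsal-like radial glia. *Nova1*, 1 of the 5 neuron-high genes over all neurons, was at 176 in cortical excitatory neurons and 150 in radial glia, a ratio of 1.17 (1.01 to 1.36).

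The same order was also cut more finely, over 6 bins of the neuronal share of progenitor plus neuron marker UMIs in neural nuclei with at least 5 such UMIs. These marker sums also set the limits of radial glia and neurons, so the bins are not independent of the classes. The part of mixed nuclei in the middle bins was not tested. *Ptbp1* held 37.8, 38.6 and 37.3 CPM in the first 3 bins, up to a neuronal share of 60%, and 26.0, 24.8 and 19.0 in the last 3. *Rbfox1* went from 146 to 3479, and *Nova1* from 125 to 404, over 123, 188, 245 and 273. *Ptbp2* went the other way, from 369 to 305. *Rbfox3* had its largest step before the midpoint, from 119 in the second bin to 229 in the third, and stayed between 245 and 277 after it. *Elavl4* was highest in the third bin, at 319 (293 to 346), above 225 in the first. Its interval there overlapped that of the last bin, at 293 (288 to 299).

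**Figure D2:**
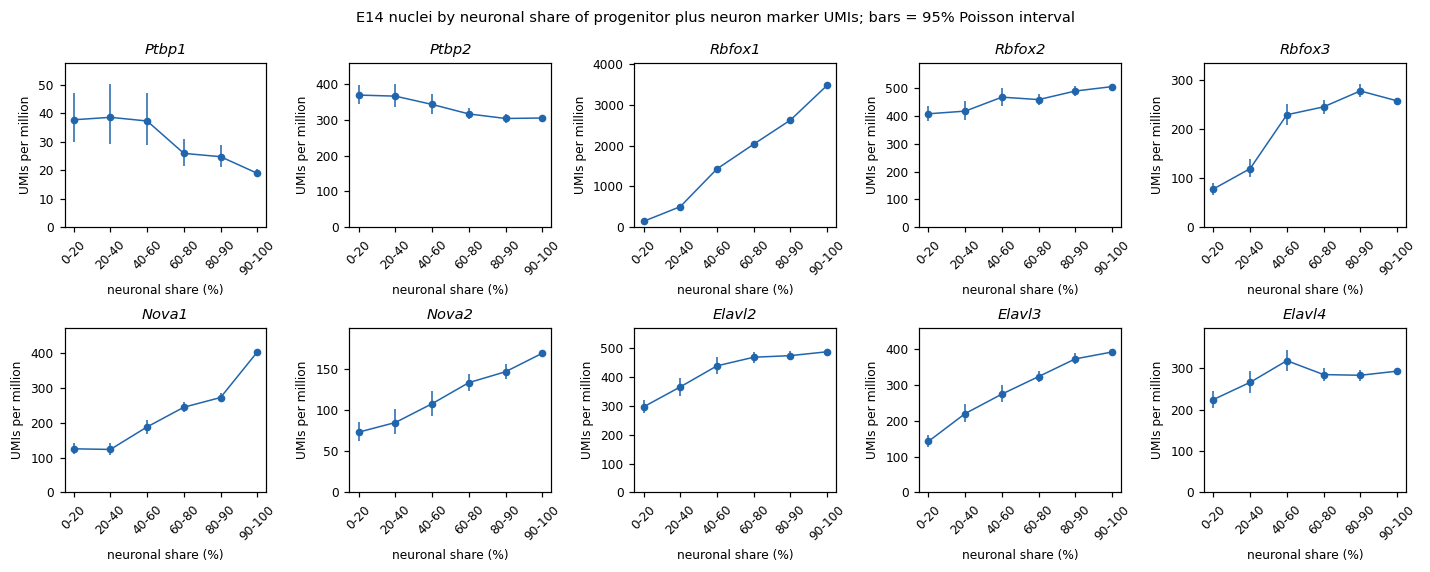
Level of each gene in CPM (linear axes from 0) in 6 bins of E14 nuclei ordered by the neuronal share of their marker UMIs in percent, with 95% Poisson intervals. *Ptbp1* is near 38 in the first 3 bins and 19.0 in the last, *Ptbp2* runs from 369 to 305, and *Rbfox1* from 146 to 3479.

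Among the 7 E14 neuron classes, the highest class was at least 2-fold over the lowest for 5 genes, *Rbfox1*, *Rbfox3*, *Nova1*, *Elavl4* and *Ptbp1*, where 38.3% of 10248 genes with at least 100 UMIs were. With Seurat clusters the count was 3. *Rbfox1* was highest in striatal (5415) and cortical excitatory neurons (5091) and lowest in Cajal-Retzius cells (1293), the early-born Reelin cells of the marginal zone. The range was 4.19-fold (3.90 to 4.50). By median per nucleus, cortical excitatory neurons (4221) were highest, above thalamic (3144) and striatal neurons (3003), and Cajal-Retzius cells (308) were again lowest. The cortical excitatory level of *Rbfox3* (491) was 2.95 times (2.66 to 3.29) that of forebrain GABAergic neurons (166), and the 5 classes between them ran from 215 to 305. *Nova1* was ordered the other way, at 176 in cortical excitatory and 387 in forebrain GABAergic neurons, with a ratio of 0.45 (0.40 to 0.51), and it was highest in midbrain or pretectal GABAergic neurons (526).

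The midbrain or pretectal GABAergic class, 68 nuclei, also held the highest *Elavl2* (734), *Elavl4* (537) and *Ptbp1* (41.6, from 19 UMIs) of the neuron classes. Its *Elavl4* was 1.83 times (1.58 to 2.11) the forebrain GABAergic level. For *Ptbp1* no pair of neighbours in the order of classes differed beyond counting error. *Ptbp2*, *Rbfox2*, *Nova2* and *Elavl3* varied least, between 1.25-fold for *Rbfox2* and 1.47-fold for *Nova2*.

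In the adult tissue, 4 of 10 genes were higher in neurons than in glia and 1 was lower, where 14.9% and 20.1% of 15644 genes were. The median log2 ratio was 0.77 over the 10 genes and -0.17 over all genes tested. *Rbfox1* stood at 5893 CPM in neurons and 701 in glia, a ratio of 8.41 (7.99 to 8.86). *Elavl2* stood at 107 and 12.9 (8.29, 5.67 to 12.6), *Rbfox3* at 695 and 125 (5.56, 4.91 to 6.31) and *Rbfox2* at 371 and 179 (2.07, 1.86 to 2.31). The last came to 1.97 where nuclei had to hold 2000 UMIs, while *Nova2*, at 1.81, reached 2.07 with clusters and 2.54 where each nucleus weighed the same. *Nova1*, a neuron-high gene at E14, was the 1 lower gene, at 43.5 in neurons and 97.4 in glia (0.45, 0.38 to 0.53). That call rests on the oligodendrocyte precursors, which gave 72 of the 204 glial UMIs: without them glia stood at 71.5 and the ratio was 0.61 (0.50 to 0.74), while *Nova2* (2.13, 1.72 to 2.66) and *Elavl4* (2.50, 1.82 to 3.51) passed 2-fold.

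*Elavl3*, a classical early neuronal marker, was highest in oligodendrocytes, the myelin-forming cells, at 411 CPM (370 to 455). That was 1.98 times (1.77 to 2.21) the neuronal level of 208 and 5.03 times (3.83 to 6.69) the astrocyte level of 81.7. A thinned oligodendrocyte held an *Elavl3* UMI in 32.3% of cases against 18.9% of neurons and 4.35% of endothelial nuclei. The unthinned shares were 65.5%, 77.9% and 11.5%, at median depths of 2922, 12593.5 and 3307.5 UMIs. Pan-neuronal markers were lowest in oligodendrocytes, at 929 CPM. On the same strand, *Elavl3* overlaps the annotated gene Gm49318 over 15644 bases, and reads there cannot be given to 1 of the 2 genes.

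*Nova1* was highest in oligodendrocyte precursors, the dividing cells that give rise to oligodendrocytes, at 287 CPM (225 to 362, 72 UMIs in 33 nuclei). This was 6.60 times (5.08 to 8.47) the neuronal level and 4.12 times (2.89 to 5.88) that of oligodendrocytes (69.8). The same precursors held *Elavl4* at 124 (84.1 to 176), 2.23 times (1.502 to 3.20) the level over all neurons. Without the dentate granule neurons the neuronal level was 97.9 and the ratio 1.26 (0.85 to 1.81), and the precursors lay below cortical excitatory (156), thalamic (169) and inhibitory neurons (189). The precursors held *Rbfox1* at 2091. Their pan-neuronal markers summed to 2921 CPM.

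*Ptbp1* was near the counting limit in the adult neurons and glia, at 8.04 CPM (90 UMIs) and 10.5 (22 UMIs), a ratio of 0.77 (0.48 to 1.28). Endothelial nuclei again held the most, 59.6 (34.1 to 96.8, 16 UMIs), 7.41 times (4.06 to 12.7) the neuronal level, and astrocytes came next with 19.8 (11.1 to 32.6). *Ptbp2* ranged only from 88.9 in CA1 neurons to 146 in microglia over all 11 classes, and its ratio of neurons to glia was 0.90 (0.79 to 1.03). *Nova2* was lowest in oligodendrocytes (23.6) and highest in cortical excitatory neurons (144) and endothelial nuclei (138).

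Microglia showed *Rbfox1* at 2098 CPM and *Rbfox3* at 373, above oligodendrocytes 10.6-fold (8.86 to 12.7) and 6.14-fold (4.26 to 8.89). Among these 45 nuclei, the nucleus with most UMIs of the gene gave 29.3% of the *Rbfox1* UMIs and, for *Rbfox3*, 28.4%, and the class also held the most pan-neuronal marker UMIs of the non-neuronal classes (4681 CPM). Values without these nuclei were not computed.

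**Figure D3:**
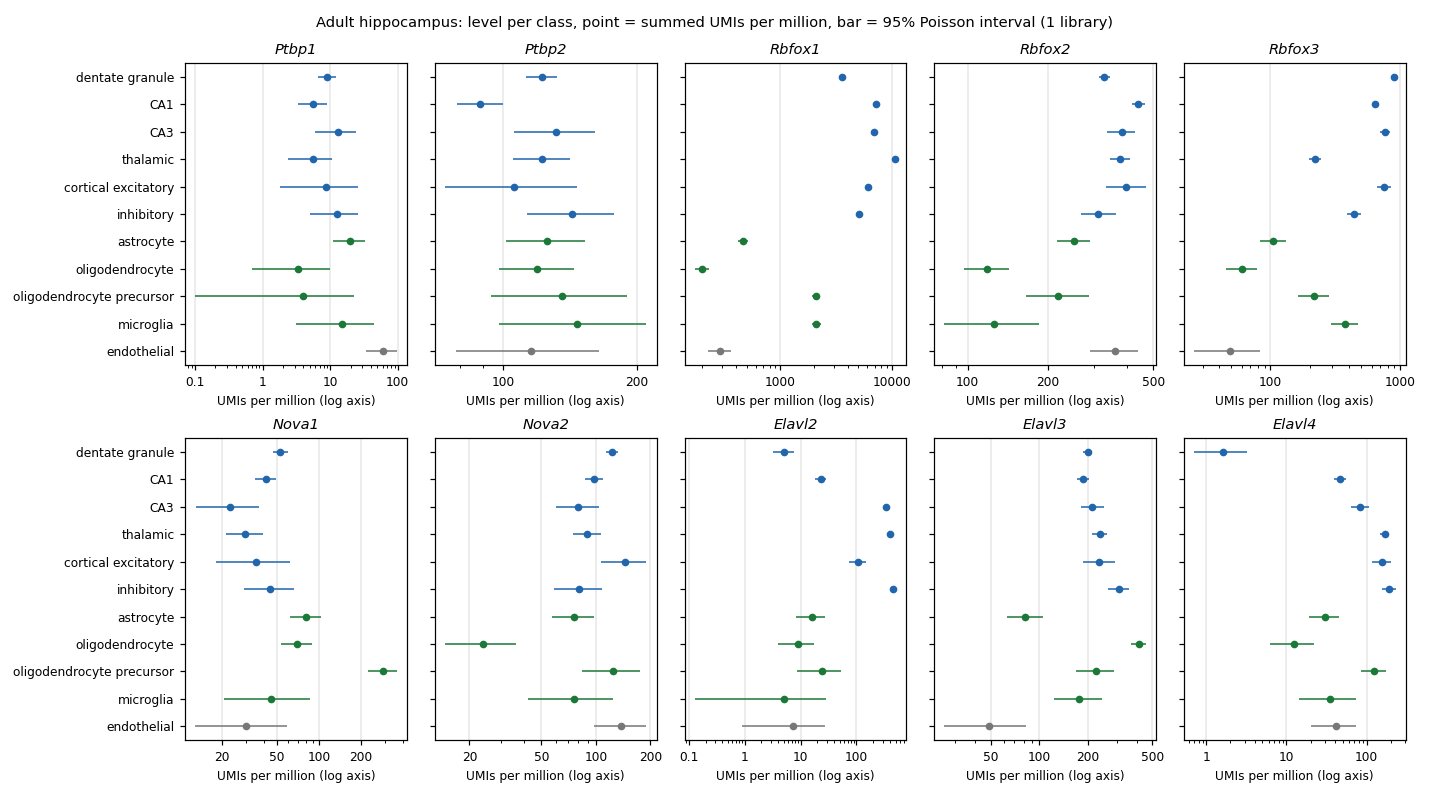
Level of each gene in 11 classes of the adult hippocampus, in CPM on a log axis, with 95% Poisson intervals from 1 library. Neurons are blue, glia green and endothelial nuclei grey; *Elavl2* and *Elavl4* lie at 5.07 and 1.62 in dentate granule neurons, and *Elavl3* is highest in oligodendrocytes at 411.

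The widest range within the adult neurons was that of *Elavl2* and *Elavl4*. Over the 6 neuron classes the highest was at least 2-fold over the lowest for 5 of 10 genes, where 60.1% of 10394 genes were, so the count itself does not set these genes apart. Dentate granule neurons, the first relay of the hippocampal circuit, held 5.07 *Elavl2* CPM (3.28 to 7.49, 25 UMIs in 366 nuclei). CA1 neurons held 22.8 (17.8 to 28.6), cortical excitatory neurons 106 (74.0 to 146), CA3 neurons 334 (293 to 380), thalamic neurons 395 (363 to 429) and inhibitory neurons 452 (398 to 511). Between CA3 and CA1, the 2 pyramidal fields, the ratio was 14.7 (11.2 to 19.4). Inhibitory and thalamic neurons did not differ beyond counting error.

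*Elavl4* followed a like order, with 1.62 CPM in dentate granule neurons (0.70 to 3.20, 8 UMIs). CA1 neurons held 46.8, CA3 82.8, cortical excitatory 156, thalamic 169 and inhibitory neurons 189, and the last 3 did not differ beyond counting error. The CA1 level was 28.8 times (14.3 to 68.0) that of dentate granule neurons. In contrast *Elavl3* was alike in dentate granule (199), CA1 (187) and CA3 neurons (213), and its whole range over the 6 classes was 1.66-fold (1.39 to 1.97).

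Of dentate granule neurons, 92.3% had no UMI of either *Elavl2* or *Elavl4* and 0 of 366 had both, which allows a share of up to 0.82%. In CA3 neurons 48.7% had both, 38.5% had *Elavl2* alone and 0 of 39 had *Elavl4* alone, which allows up to 7.69%. In CA1 neurons *Elavl4* alone (27.1%) was more frequent than *Elavl2* alone (9.55%). After thinning, an *Elavl2* UMI was found in 0.84% of dentate granule and 3.95% of CA1 neurons, against 35.1% of CA3 neurons and 1.28% of oligodendrocytes. The dentate granule share was thus not above that of oligodendrocytes, and the part of free RNA in either was not tested. The unthinned shares were 5.74%, 23.6%, 87.2% and 2.41%, at median depths of 11379, 16674, 16982 and 2922 UMIs.

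**Figure D4:**
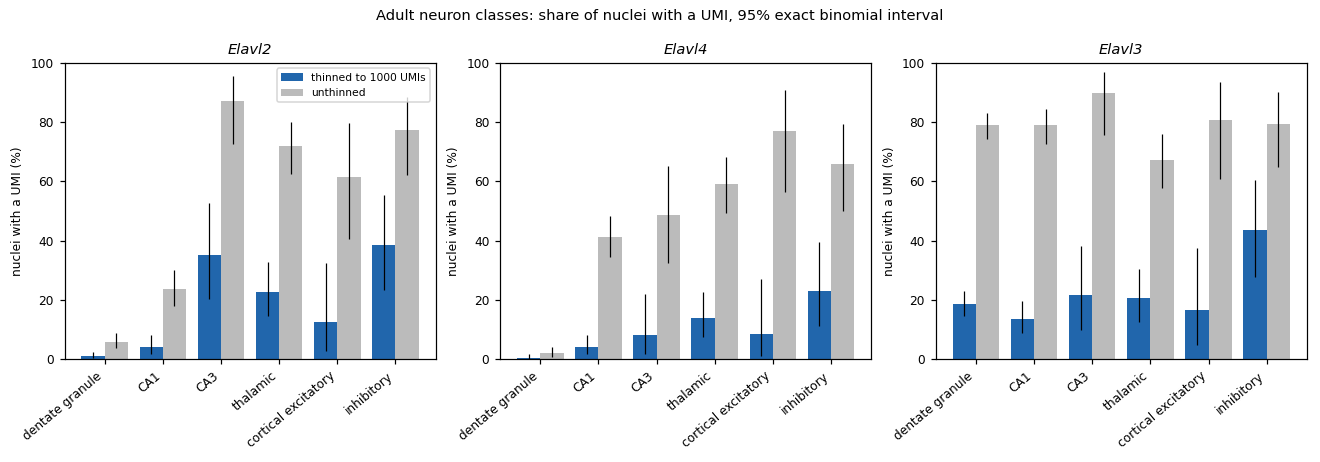
Share of nuclei with at least 1 UMI of *Elavl2*, *Elavl4* and *Elavl3* in 6 adult neuron classes, in percent with 95% binomial intervals, after thinning to 1000 UMIs (blue) and unthinned (grey). For *Elavl2* and *Elavl4* the unthinned dentate granule bars are at 5.74% and 1.91%, while that of *Elavl3* is at 79.0%.

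*Rbfox3* and *Rbfox1* were ordered differently across the adult neurons. *Rbfox3* was highest in dentate granule neurons at 890 CPM (864 to 917), followed by CA3 (764), cortical excitatory (754) and CA1 neurons (633), then inhibitory neurons (441) and thalamic neurons (220, 196 to 245). In pooled UMIs *Rbfox1* was lowest in dentate granule neurons at 3531 (3479 to 3584) and highest in thalamic neurons at 10733 (10565 to 10902). Neighbours in that order of its 6 classes differed beyond counting error, which leaves out the spread between nuclei. Medians per nucleus took another order, from 1823 in inhibitory and 3332 in dentate granule neurons to 6388 in CA1 and 6420 in CA3 neurons. The thalamic median was 6139 and the cortical excitatory one 4843. The thalamic level of *Rbfox3* was 0.29 times (0.26 to 0.32) and that of *Rbfox1* 2.08 times (2.04 to 2.11) the level of the other neuron classes. Thalamic nuclei included 42 of 110 with under 1.5% *Malat1* UMIs and a median of 1006 UMIs, in which *Rbfox1* was at 2116 CPM against 11249 in the others.

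Set beside each other, adult and E14 neurons differed in 6 of 10 genes, 1 higher and 5 lower in the adult, where 17.1% of 18431 genes were higher and 22.7% lower. *Rbfox3* was the higher one, at 695 CPM against 252 (2.75, 2.67 to 2.84). *Nova1* was lowest relative to E14, at 43.5 against 416 (0.105, 0.0953 to 0.115), followed by *Elavl4* (0.19, 0.17 to 0.20), *Elavl2* (0.22, 0.20 to 0.23), *Ptbp2* (0.37, 0.35 to 0.40) and *Ptbp1* (0.43, 0.34 to 0.53). The neuron types of the 2 tissues differ, and in like-named classes the list was another.

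In the 3 like-named neuron classes, *Nova1* and *Ptbp2* were lower in the adult. For *Nova1* the ratio was 0.20 (0.10 to 0.35) in cortical excitatory, 0.11 (0.08 to 0.16) in thalamic and 0.12 (0.07 to 0.17) in inhibitory against forebrain GABAergic neurons. For *Ptbp2* it was 0.36, 0.37 and 0.49. Between astrocytes and radial glia it was 0.34 (0.27 to 0.42) for *Ptbp2* but 0.53 (0.40 to 0.70) for *Nova1*, and in microglia 0.55 (0.36 to 0.82) for *Ptbp2*, and neither of the last 2 passed 2-fold. *Nova1* was lower in adult microglia (0.16, 0.07 to 0.31, 9 adult UMIs) and endothelial nuclei (0.26, 0.11 to 0.52, 8 adult UMIs). *Ptbp2* was lower in adult endothelial nuclei (0.499, 0.335 to 0.718). Lower adult levels of these 2 genes were thus also counted in non-neuronal classes. Those classes held pan-neuronal marker UMIs in both libraries, and the part of neuronal RNA in these ratios was not tested. *Elavl4*, lower over all neurons, stayed within 2-fold in the like-named neuron classes, at 0.61 (0.45 to 0.81) in cortical excitatory, 0.77 (0.65 to 0.90) in thalamic and 0.65 (0.52 to 0.79) in inhibitory neurons. *Elavl2* stood at 395 CPM in adult and 391 in E14 thalamic neurons (1.01, 0.90 to 1.13), and at 452 and 503 in the inhibitory pair (0.90, 0.78 to 1.03), but at 106 and 540 in cortical excitatory neurons (0.20, 0.14 to 0.27). *Rbfox3* likewise was 2.66 times (2.27 to 3.10) as high in the adult inhibitory class and 0.93 times (0.80 to 1.08) in the thalamic class. Between astrocytes and radial glia, *Elavl2* and *Elavl4* had ratios of 0.0503 (0.0259 to 0.0884) and 0.127 (0.0799 to 0.193), and in endothelial nuclei *Elavl2* was also lower, at 7.45 (2 UMIs) against 221 CPM.

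**Figure D5:**
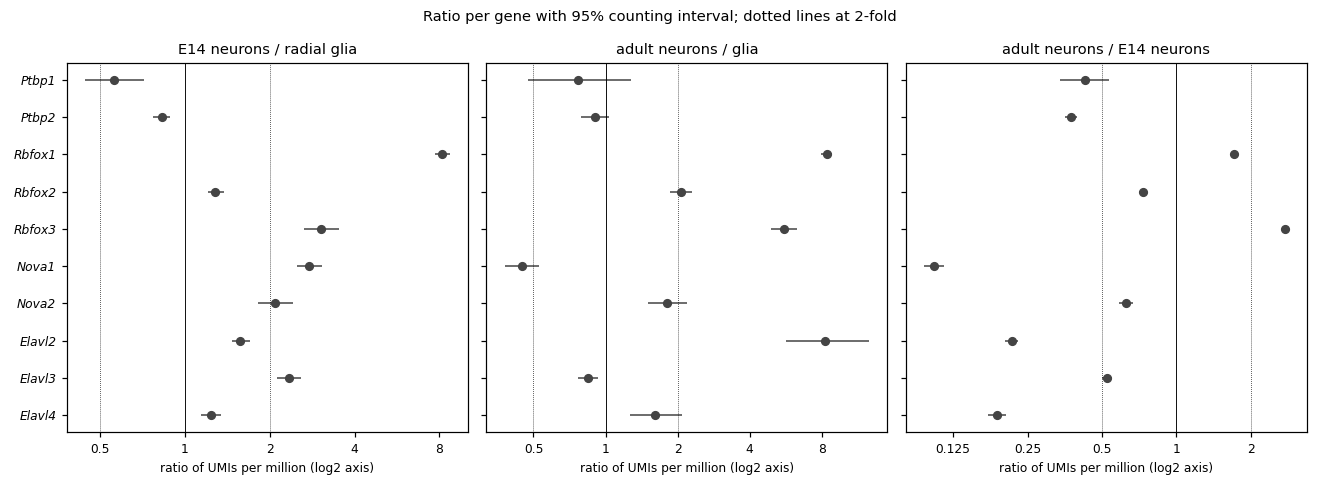
Ratio of CPM for each gene on a log2 axis with 95% counting intervals: E14 neurons over radial glia, adult neurons over glia, and adult over E14 neurons. Solid lines mark equality and dotted lines 2-fold; *Rbfox1* is at 8.17 and 8.41 in the first 2 panels, and *Nova1* at 2.77, 0.45 and 0.105.

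The genes differ greatly in length, and nuclear libraries count intronic reads, so levels were set beside each other between genes per kilobase of gene. The libraries were made with a 3′ kit, and whether their UMIs rise with gene length was not tested. The orders below depend on that division. *Rbfox1* spans 1526.2 kb on chromosome 16 and *Ptbp1* 10.3 kb on chromosome 10. Per kilobase, E14 neurons held *Elavl3* at 10.7 CPM, *Ptbp2* at 4.62, *Nova2* at 4.34, *Nova1* at 3.34, *Elavl2* at 3.30 and *Rbfox1* at 2.27, and *Ptbp1* at 1.82. In radial glia *Ptbp2* led with 5.58, ahead of *Elavl3* (4.61) and *Ptbp1* (3.26), although *Ptbp1* was the lowest of the members there before the division, at 33.7 CPM. In adult neurons the leading genes were *Elavl3* (5.62), *Rbfox1* (3.86) and *Nova2* (2.72). *Ptbp1* shares 4297 bases with *Plppr3* on the opposite strand.

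A list of 60 other RNA-binding regulators and factors that act on them was set beside the members, of which 59 were in the files. Of 56 with at least 20 UMIs, 10 were higher in E14 neurons than in radial glia and 15 lower, with a median log2 ratio of -0.63. Over all 17577 genes tested, 13.6% were higher and 16.9% lower, and the median was -0.21. The higher ones were 4 of 6 CELF genes, *Srrm3*, *Srrm4*, *Khdrbs2*, *Lin28b* and the host genes of miR-124, *Mir124a-1hg* and *Mir124-2hg*. *Srrm3*, a regulator of neuronal microexons, led with 193 against 21.9 CPM (8.82, 6.75 to 11.8), followed by *Celf6* (7.95, 4.42 to 16.0). The lowest ratios were those of *Mbnl3* (0.14, 0.11 to 0.18) and *Raver2*, a PTB partner (0.17, 0.13 to 0.21). With Seurat clusters, 8 were lower.

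Of 6 Musashi and other progenitor RNA-binding genes, 4 were lower and 1 was higher. *Msi1*, a stem cell marker that represses translation, stood at 69.8 against 263 (0.27, 0.24 to 0.29), and *Qk*, which binds myelin and glial RNAs, at 334 against 1177 (0.28, 0.27 to 0.30). Of 12 SR protein genes 3 were lower and 0 higher, and the same held for 3 of 13 hnRNP genes. With 12 and 13 genes, these counts are too small to be set apart from the 16.9% of all genes tested that were lower. The median log2 ratio was -0.75 over the SR protein genes and -0.80 over the hnRNP genes, against -0.21 over all genes. The microexon activator *Srrm4* was 2.14 times as high in neurons (1.95 to 2.36). Broadly expressed relatives of the members stayed within 2-fold: *Elavl1* (HuR) had a ratio of 0.65 (0.59 to 0.73) and *Ptbp3* of 1.41 (1.153 to 1.75).

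In cortical excitatory neurons against radial glia, 9 of 56 were higher and 15 lower, where 11.2% and 19.7% of 13048 genes were. *Khdrbs2* (7.88, 7.10 to 8.76) and *Srrm3* (7.02, 5.25 to 9.54) led at the upper end. At the lower end were *Mbnl3* (0.13, 0.06 to 0.23) and *Rest*, a repressor of neuronal genes (0.14, 0.07 to 0.28). *Srrm4* reached 5.14 (4.64 to 5.70), and *Qk*, *Msi1*, *Elavl1* and *Ptbp3* had ratios of 0.20, 0.26, 0.72 and 0.80.

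In the adult, 12 of 53 were higher in neurons than in glia and 5 lower, where 14.9% and 20.1% of 15644 genes were. *Lin28b*, best known as a blocker of let-7 in embryos, was at 25.8 CPM in neurons and had 0 UMIs in glia, which makes it at least 18.0-fold higher against a floor of 3 counts over the glia. *Mir124a-1hg* followed with 184 against 23.9 (7.71, 5.82 to 10.4). At the other end, *Qk* was at 173 in neurons and 2858 in glia (0.0604, 0.0573 to 0.0636) and *Msi1* at 6.97 and 55.8 (0.12, 0.09 to 0.17). *Srrm4* was 6.76 times (5.22 to 8.91) as high in neurons, and *Elavl1* and *Ptbp3* had ratios of 0.67 (0.56 to 0.79) and 0.92 (0.77 to 1.11). None of the 12 SR protein or 13 hnRNP genes differed 2-fold in these adult nuclei.

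For 4 members, the genes with at least 100 UMIs whose level over classes was most like theirs were listed by Pearson's r of log2(CPM + 10), as a description over classes of 1 library. Over 14 E14 classes, *Elavl4* was most like its paralogue *Elavl2* (0.94), then *Adck5*, *Tcp11l1*, *Zfp2* and *Gigyf1*. *Rbfox3* was most like *Carmil3* (0.93), *Serpini1*, *Kif21b*, *Disp3* and *Wdr47*, *Ptbp1* like *Pak4* (0.92), *Irf3*, *Gpkow*, *Prkag1* and *Pxmp4*, and *Ptbp2* like *Fads1* (0.93), *Xdh*, *Arhgef10l*, *Lnpk* and *4933406B15Rik*. Over 11 adult classes, *Rbfox3* was like *Svop* (0.98), *Rtn1*, *Stxbp5l* and *Gm14372*, among others, and *Elavl4* like *Gap43* (0.88), a growth cone protein, *Dlc1*, *Flot1*, *B3glct* and *Flywch1*. *Ptbp1* was most like *Prkd2* (0.96), *Itga1*, *Slc3a2*, *Rab1b* and *Fzd6*, and *Ptbp2* like *Gm16599* (0.82), *Rpp30*, *Gtf2e1*, *Lgals8* and *Zfp770*. The classes of a library share its depth and its free RNA.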

How the data were processed

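Slide-tags single-nucleus RNA-seq of 2 mouse tissues was analysed, with 1 library each. The deposited values are raw UMI counts per gene and nucleus barcode, made by the authors with Cell Ranger against mm10 with intronic reads. The file headers give version 6.1.2 for the adult and 7.0.1 for the E14 library. CellBender is named in the methods for embryo data, but the E14 file has the header of Cell Ranger output and whole counts, and whether background was removed from it is not given in the sources used here. Barcodes needed 500 UMIs and a mitochondrial share below 5%.

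The members and all lists were chosen with earlier results of these data known. Classes came from lists of 8 markers each, scored per nucleus as the mean z-score of log-scaled expression (scaled to 10000 UMIs, clipped at 5). Adult nuclei took the best list if it led by 0.3 with 2 detected markers for neuron classes or 3 for others. At E14, radial glia needed more progenitor than pan-neuronal marker UMIs and a lead of 0.3 over pan-neuronal and non-neural lists, intermediate progenitors 3 markers of their list, and neurons 3 pan-neuronal markers with over 4 times more pan-neuronal than progenitor marker UMIs. Neuron classes again needed 2 markers and the lead of 0.3, and Cajal-Retzius cells a *Trp73* UMI. This scoring rule was set after marker UMIs had been seen, without member values. Scrublet in scanpy 1.11.5 marked 0.373% of adult and 0.0443% of E14 nuclei by its own threshold, which was taken not to have worked, so doublets were kept, and the 21 and 653 nuclei with the highest scores were removed as an alternative.

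Ratios of summed UMIs carry exact conditional binomial intervals, levels exact Poisson and shares exact binomial (Clopper-Pearson) intervals (scipy 1.17.1). Genes with 20 UMIs over both sides entered counts of genes, and the upper limit for a value of 0 is 3 counts. For shares each nucleus was thinned to 1000 UMIs, leaving out shallower ones. The call rule was tested on simulated data. Clusters came from Seurat 5.3.0 in R 4.3.3 (2000 variable genes, 30 components, resolution 0.8). Named beside the 10 members are the 2 other regulators with the largest ratios in each direction past 2-fold, *Elavl1*, *Ptbp3*, *Srrm4*, *Qk* and *Msi1*, and the 5 genes most like 4 of the members, of which 1 is not reported here.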

Additional observations from a re-analysis of the deposited data

How the results depend on the processing

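Under 9 alternative settings (higher UMI minima, a limit of 1% mitochondrial UMIs, Seurat clusters, 1 more marker, likely doublets removed, equal weight per nucleus, other denominators and *Malat1*-poor nuclei left out), 122 counts stayed within 1.5 times the reported one and 4 did not. With Seurat clusters, members higher in E14 neurons than in radial glia numbered 2, other regulators lower there 8, and members with a 2-fold range over E14 neuron classes 3. With 1 more marker asked for, 1 member (*Ptbp1*) was lower in cortical excitatory neurons than in radial glia. With oligodendrocyte precursors left out of the glia, an alternative chosen after seeing the data, 0 members were lower in adult neurons and 6 were higher. Radial glia clusters held 469 and 451 nuclei, more than the 346 of the class, and the cause was not tested. Of single ratios and shares, 319 lay within the counting interval of the reported value and 61 outside it. The share of E14 radial glia with a *Ptbp2* UMI was 29.3% thinned to 1000 UMIs, 47.1% at 2000 and 64.7% unthinned. No paired analysis was possible because each tissue has 1 library, and no library could be left out. Depth limits *Ptbp1* in the adult most, with 144 UMIs in the whole library.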

Other observations

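Within E14 radial glia, nuclei with at least 3 cell cycle markers (208) and with at most 2 (138) held *Ptbp1* at 33.7 and 34.2 CPM, a ratio whose interval includes equality (0.98, 0.54 to 1.94). *Ptbp2* was 1.40 times (1.14 to 1.74) as high in the cycling nuclei, and *Rbfox1* 7.44 times (5.01 to 11.5), at 489 against 65.7. The cycling nuclei were deeper, with a median of 5399 against 2396 UMIs. Over all radial glia the median *Rbfox1* level per nucleus was 0, and 1 nucleus with 118 UMIs gave 11.3% of the *Rbfox1* UMIs. Likely doublets were kept, and the part of mixed nuclei in the *Rbfox1* ratio was not tested.

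Radial glia were also split by region, into 66 with an *Emx1* or *Emx2* UMI and no *Dlx* UMI (dorsal forebrain genes) and 68 with a *Dlx* UMI and no *Emx* UMI (ventral genes). *Elavl3* was at 94.4 CPM in the first and 263 in the second (0.36, 0.25 to 0.51), *Ptbp2* at 293 and 461 (0.64, 0.51 to 0.79), and *Ptbp1* at 12.0 (6 UMIs) and 39.97 (0.30, 0.10 to 0.79). *Rbfox3* went the other way, at 139 and 69.4 (2.00, 1.30 to 3.12). *Elavl2* was alike, at 355 in both. Both splits were chosen after the classes had been seen.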
